A study of Mus musculus with 20 samples.

Results

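The nuclear factor I family comprises 4 mouse transcription factor genes, Nfia, Nfib, Nfic and Nfix, and all 4 were taken by symbol. They were 4 of the 37994 genes in the developmental tables and 4 of the 36104 genes in the left and right tables. Single habenula cells had been processed on 20 plates with Cel-seq2, a plate-based single-cell RNA-seq method that counts unique molecular identifiers (UMIs). The developmental series came from the Brn3a-tauLacZ line, a reporter line for Brn3a, the older name of Pou4f1, with 2 plates per stage (embryonic E11, E13, E15 and E18, postnatal P4 and P7, adult) except E12, which had 1. C57BL/6 mice gave a separate E18 set of 5 plates: 2 from the left habenula, 2 from the right, and 1 holding both sides. The zygosity of the reporter, the age of the adults, any sorting, and how many animals were pooled on a plate were not given in the sources used here. For the plate of both sides the title reads E1 where the remaining labels read E18, and it was taken as E18.

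Each member was measured in 2 classes of wells. Pou4f1 wells held at least 1 count of Pou4f1, the transcription factor that marks habenular neurons, and Sox2 wells held at least 1 count of Sox2, a transcription factor of neural progenitors and glia. Of 3729 wells kept in the series, 2933 were Pou4f1 wells, 1265 were Sox2 wells and 848 were both. In the left and right set 1082 wells were kept, with 727, 437 and 242 in the same order. Counts were summed over the wells of a class on each plate and given as counts per 1000000 (CPM), so the plate was the replicate and wells were not. In such sums, fewer expressing cells and less RNA per cell cannot be told apart.

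NFI proteins bind DNA as dimers at a palindrome made of TTGGC sites, and can also bind a single such site. In the developing brain and spinal cord, Nfia and Nfib are known for starting the switch of progenitors from making neurons to making glia, with Sox9 acting upstream of Nfia and beside it. Nfix is known for the timing of progenitor differentiation and for quiescence of adult neural stem cells, and NFI factors also act in maturing neurons, best studied in cerebellar granule cells. Nfic is best known outside the brain, for tooth root formation.

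The 4 genes lie on 3 chromosomes and most of their length is intron (GENCODE M21 on GRCm38). Nfia (ENSMUSG00000028565) lies at chr4:97772734-98118874 on the plus strand and is 96.9% intron, and Nfib (ENSMUSG00000008575) lies at chr4:82290173-82705750 on the minus strand and is 96.4% intron. Nfix (ENSMUSG00000001911) lies at chr8:84699876-84800344 on the minus strand and is 92.7% intron, and Nfic (ENSMUSG00000055053) lies at chr10:81396186-81455635 on the minus strand and is 88.8% intron. Exons of Nfia, Nfix and Nfic overlap genes on the opposite strand. Nfib overlaps genes outside exons, among them Gm11266 on the opposite strand. Whether counting used strand is not given, so reads of such pairs cannot be told apart. The counts assigned to the partners were few: 307 for E130114P18Rik beside 11920 for Nfia, and 389 for Gm11266 beside 25140 for Nfib. Lyl1 had 31.0 and G430095P16Rik 21.0 beside 8398 for Nfix, and Gm16104 had 38.0 beside 4443 for Nfic. How many reads were shared is not known.

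Promoter sequence is shown for Nfia and Nfix, whose mean level in Pou4f1 wells was highest at E18 (for Nfia through 1 of 2 plates), and for Nfic, whose mean was highest in the adult. Nfib, also highest at E18, had no entry among the promoter sequences at hand and is not shown. RefSeq (GRCm38.p6) matched 6 windows of 250 bases before a transcript start, 1 for Nfia, 4 for Nfix and 1 for Nfic. Both strands were searched for TTGGC, the single NFI site, and ACAAT, the core bound by Sox factors, and no matches overlapped. Capitals mark the matches as read on the gene's strand, where ATTGT is ACAAT on the other strand.
Nfia, chr4:97581693-97581942, plus strand: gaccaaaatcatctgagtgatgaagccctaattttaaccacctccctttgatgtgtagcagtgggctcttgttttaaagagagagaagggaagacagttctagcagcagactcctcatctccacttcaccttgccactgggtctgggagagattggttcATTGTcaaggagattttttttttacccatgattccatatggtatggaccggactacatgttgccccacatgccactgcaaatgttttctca
Nfix, chr8:84775829-84776078, minus strand: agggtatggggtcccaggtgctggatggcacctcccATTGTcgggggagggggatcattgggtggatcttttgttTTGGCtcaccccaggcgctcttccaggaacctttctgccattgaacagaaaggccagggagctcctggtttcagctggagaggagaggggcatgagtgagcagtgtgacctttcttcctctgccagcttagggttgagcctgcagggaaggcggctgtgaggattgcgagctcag
Nfic, chr10:81427174-81427423, minus strand: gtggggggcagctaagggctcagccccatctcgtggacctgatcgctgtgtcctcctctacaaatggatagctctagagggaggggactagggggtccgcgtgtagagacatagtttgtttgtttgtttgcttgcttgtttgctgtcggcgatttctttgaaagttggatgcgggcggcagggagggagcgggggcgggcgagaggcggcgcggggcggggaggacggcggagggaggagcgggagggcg
The Nfia window ends at 97581942, well before the GENCODE start at 97772734, and held 1 ACAAT core and no TTGGC. All Nfix and Nfic windows lie inside their GENCODE genes, so sequence before the GENCODE starts of these 2 genes was not searched. The Nfix window shown held 1 of each, and another Nfix window, at chr8:84772876-84773125, held 1 TTGGC. The Nfic window and the other two Nfix windows held neither. TTGGC was present in 41.5% and ACAAT in 27.7% of 32851 promoter windows of the same length. The full palindrome, a TTGGC followed after 5 bases by its reverse complement, was in 0.0365% of them and in none of these 6. Such matches are descriptions of letters, not evidence of binding.

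Plates held 758697 to 7760372 counts, and the median kept well held 5058 to 29096. Nothing in the labels says that plates came from separate animals or litters, so p-values measure the spread between plates, which may be technical. Sequencing runs held 5 plates and which ran together is not given, so batch and stage cannot be told apart. Pou4f1 wells carried neuronal markers: 10 of 10 had counts on every plate, summing to 5045 to 15207 CPM. Some plates stood apart from their partners in these wells. On E18 plate 1 the summed progenitor markers were 2056 CPM (10 of 10 with counts), astrocyte markers 1139 CPM (8 of 10, with Aqp4 and Gfap at 0) and ependymal and choroid plexus markers 1437 CPM (6 of 6), against 248, 189 and 22.7 CPM on plate 2. On adult plate 1 the oligodendrocyte markers summed to 4421 CPM (10 of 10), against 454 CPM on plate 2. E13 plate 2 held 2493 CPM of ependymal and choroid plexus markers (5 of 6, with Tmem212 at 0), against 8.88 CPM on plate 1, and 941 against 86.3 CPM of vascular and fibroblast markers (7 of 7 on both), with neuronal markers at 7039 against 10564 CPM.

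In Pou4f1 wells, 3 members had their highest mean at E18 and 1 in the adult. Nfia, Nfib and Nfix had their lowest mean at E11 and fell from E18 to P4, but their rise from E15 to E18 did not pass the test. For Nfia the E18 mean rests on plate 1. Nfic was lowest at E11 and highest in the adult. All 4 changed over the 7 tested stages (edgeR's quasi-likelihood test, adjusted p = 0.00184 for Nfia, 0.000426 for Nfib, 5.62e-05 for Nfix and 3.48e-05 for Nfic), where 49.4% of 16353 genes did. Nfix had no more than 8 UMIs on either E11 plate, so its E11 level rests on single counts.

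Nfix showed the widest range. Its level was 1.62 CPM (95% Poisson interval 0.698 to 3.19) and 0.217 CPM (0.00550 to 1.21) on the E11 plates, 6.58 CPM at E12, 14.4 and 54.1 CPM at E13, and 30.5 and 78.6 CPM at E15. It was 1085 and 509.6 CPM on E18 plates 1 and 2, 167 and 147 CPM at P4, 121 and 109 CPM at P7, and 146 and 41.3 CPM in adult plates 1 and 2. Both E18 plates lay above every other plate and both E11 plates below every other. Ordered by mean, the stages ran E11 (0.917 ± 0.990 CPM, SD, n = 2), E13 (34.2 ± 28.1), E15 (54.6 ± 34.0), adult (93.5 ± 73.8), P7 (115 ± 8.32), P4 (157 ± 14.5) and E18 (797 ± 407). Plates of E13 and E15 overlapped, and so did those of the adult with E13, E15 and P7. The order of those stages is thus not settled, which does not show that their levels were the same.

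Nfib, whose product acts with Nfia in gliogenesis, was also highest at E18. It measured 23.7 and 6.95 CPM at E11, 43.9 CPM at E12, 124 and 576 CPM at E13, 1114 and 416 CPM at E15, and 3319 and 1528 CPM at E18. Afterwards it measured 405 and 467 CPM at P4, 318 and 289.9 CPM at P7, and 326 and 176 CPM in the adult. Only the ends of its order stood apart: E11 (15.3 ± 11.8 CPM, n = 2) lay below and E18 (2423 ± 1267 CPM) above all other stages. The adult (251 ± 106), P7 (304 ± 20.0), E13 (349.8 ± 319), P4 (436 ± 44.0) and E15 (765 ± 493) each overlapped their neighbour in the order.

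Nfia had 2 E18 plates that lay far apart. It measured 33.0 and 4.34 CPM at E11, 50.5 CPM at E12, 149 and 383 CPM at E13, 371 and 112 CPM at E15, and 1806 and 377 CPM on E18 plates 1 and 2. It then measured 84.7 and 87.6 CPM at P4, 56.4 and 48.3 CPM at P7, and 115 and 50.8 CPM in adult plates 1 and 2. E18 plate 2 lay between the E13 plates, so the E18 mean of 1091 ± 1010.2 CPM (n = 2) rests on plate 1. The order by mean was E11 (18.7 ± 20.3), P7 (52.3 ± 5.76), adult (83.1 ± 45.7), P4 (86.2 ± 2.01), E15 (242 ± 183), E13 (266 ± 166) and E18. P7, the adult and P4 overlapped in turn, and the adult also overlapped E15. E13 overlapped both E15 and E18, and E11 lay below all others.

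Nfic took another course, with its highest mean in the adult and a narrower range of stage means than the other members. It measured 24.9 and 20.6 CPM at E11, 40.6 CPM at E12, 47.8 and 66.9 CPM at E13, 41.8 and 36.8 CPM at E15, and 73.5 and 48.6 CPM at E18. It then measured 78.7 and 75.3 CPM at P4, 84.2 and 84.7 CPM at P7, and 131 and 170.1 CPM in the adult. By mean the order was E11 (22.7 ± 2.99), E15 (39.3 ± 3.53), E13 (57.4 ± 13.5), E18 (61.1 ± 17.6), P4 (77.0 ± 2.40), P7 (84.5 ± 0.296) and adult (151 ± 27.4), all n = 2. Only E13 and E18 overlapped.

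**Figure D1:**
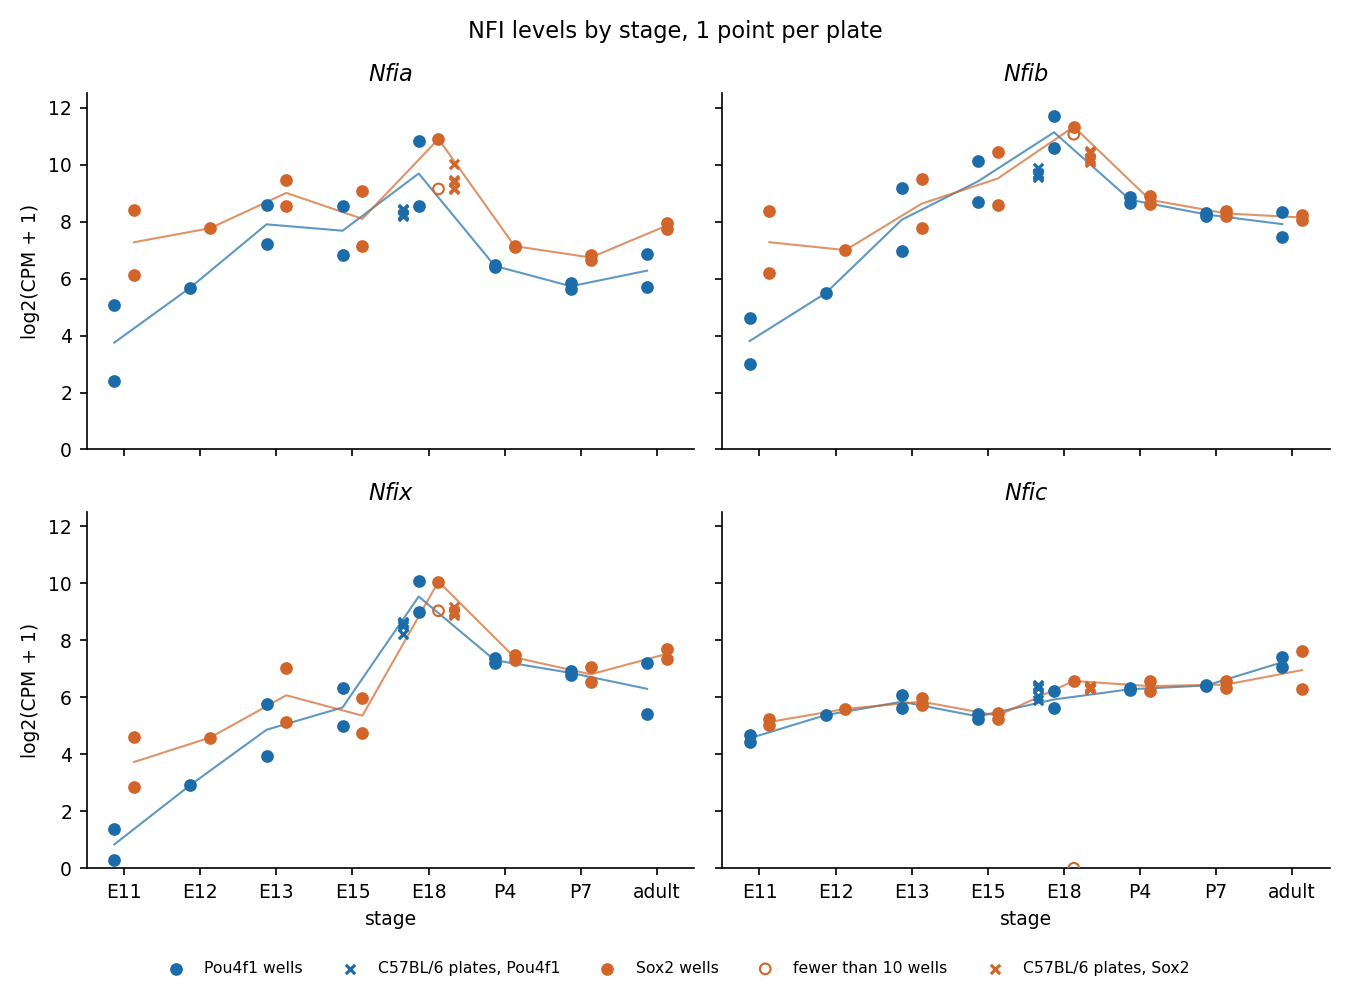
Level of each NFI gene (CPM, log axis) by stage in Pou4f1 wells and in Sox2 wells, one point per plate. In Pou4f1 wells Nfia, Nfib and Nfix have their highest mean at E18, where Nfix reaches 1085 and 509.6 CPM, and Nfic is highest in the adult at 131 and 170.1 CPM.

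Between successive stages, the calls in Pou4f1 wells fell at 2 steps. Where members gain or lose a call in a refit below, the share of all genes called in that refit is mostly not given. Such a change cannot be told apart from a fit that called more or fewer genes of any kind. From E11 to E13, 3 members rose where 1.78% of genes changed and 1.05% rose: Nfix by 4.96 ± 0.94 on the log2 scale (SE; edgeR adjusted p = 0.0224), Nfib by 4.36 ± 0.77 (adjusted p = 0.0162) and Nfic by 1.20 ± 0.24 (adjusted p = 0.0266). Nfia had a log2 difference of 3.69 ± 0.90 and missed the threshold (edgeR adjusted p = 0.0637). No call at this step was kept without E11 plate 1, without E11 plate 2 or without E13 plate 2, fits that leave 1 plate at a stage. The Nfic call was also lost without any 1 of the P4 and P7 plates, and those of Nfic and Nfix in the unspliced counts. The Nfix call was lost with Sox2 wells left out. E13 plate 2 was also the plate with the ependymal, choroid plexus, vascular and fibroblast markers, whose part in the rise was not tested.

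From E13 to E15 no member passed (edgeR; 0 of 4 also at an unadjusted p under 0.05 and 0 by DESeq2), where 0.11% of genes did, 0.0673% higher and 0.0428% lower. From E15 to E18 again no member passed in edgeR, where 0.159% of genes did (0.104% higher, 0.055% lower), although 3 of 4 were under 0.05 before adjustment and DESeq2 called 1. At this step Nfix had a log2 difference of 3.79 ± 0.66 with an edgeR adjusted p of 0.050015, just above the threshold. It passed without either adult plate, without either E13 plate and without E18 plate 2. Nfia (2.05 ± 0.82, edgeR adjusted p = 0.384) and Nfib (1.56 ± 0.66, adjusted p = 0.409) had smaller differences.

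From E18 to P4, the step across birth, 3 members fell where 20.4% of genes changed and 10.4% fell. Nfia changed by -3.44 ± 0.87 on the log2 scale (edgeR adjusted p = 0.0166), Nfib by -2.27 ± 0.68 (adjusted p = 0.0339) and Nfix by -2.15 ± 0.60 (adjusted p = 0.0264). Nfic had a log2 difference of 0.53 ± 0.23 (edgeR adjusted p = 0.124). Leaving out wells that also held Sox2 kept all 3 calls, with Nfia at -3.01, Nfib at -2.15 and Nfix at -1.94. Without E18 plate 1, which carried the progenitor and glial markers, the log2 differences were -2.02, -1.70 and -1.59. The calls were not kept without E18 plate 1, P4 plate 1 or P4 plate 2, fits that leave 1 plate at a stage. A smaller share of all genes passed as lower in those fits too. The lost calls thus cannot be told apart from a fit that called fewer genes of any kind. Without P7 plate 1 the Nfib and Nfix calls were lost. The Nfib call was also lost without P7 plate 2 and in the unspliced counts. The part of the other cell types' markers in the fall was not tested.

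After P4 no member passed in the main edgeR fit in Pou4f1 wells, which does not show that levels stayed the same. Nfia, Nfib and Nfix were lower on both P7 plates than on both P4 plates. Nfic was higher on both P7 plates, and higher again on both adult plates. From P7 to the adult the plates of the other members overlapped. The fit was imprecise from P4 to P7, with SEs of 0.80 for Nfia, 0.65 for Nfib and 0.58 for Nfix on the log2 scale. From P4 to P7 none passed (edgeR; 0 of 4 at an unadjusted p under 0.05 and 0 by DESeq2), where 0.00612% of genes did, and log2 differences lay between -0.71 for Nfia and 0.14 for Nfic. From P7 to the adult none passed in edgeR, where 3.68% of genes did (1.35% higher, 2.34% lower). Nfic came nearest, with a log2 difference of 0.75 ± 0.22 (edgeR adjusted p = 0.0775), the 1 member under 0.05 before adjustment and the 1 member called by DESeq2. Without adult plate 1, or without E18 plate 1, 1 member passed in edgeR at this step. Adult plate 1 had 21 Pou4f1 wells and the high oligodendrocyte markers, whose part was not tested.

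In Sox2 wells the same 3 members were highest on E18 plate 1. At E11 Nfia measured 341 CPM (95% Poisson interval 288 to 401) and 69.3 CPM (43.4 to 105), and Nfib 327 and 72.4 CPM, each above both E11 plates of Pou4f1 wells. Nfix was low in both classes at E11, with 23.2 CPM (11.1 to 42.6) and 6.29 CPM (0.762 to 22.7) in Sox2 wells. E18 plate 2 had only 5 Sox2 wells and was left out of the fit, so E18 rests on plate 1 with 204 wells. In tests of the steps to and from E18, this lone plate was assumed to vary like the plates of other stages, and leaving it out gives no test.

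Nfia in Sox2 wells measured 217 CPM at E12, 377 and 701 CPM at E13, 536 and 139 CPM at E15, 1915 CPM on E18 plate 1 and 566 CPM (406 to 768) on plate 2. At P4 it measured 139 and 142 CPM, followed by 113 and 99.5 CPM at P7 and 215 and 249 CPM in the adult. E18 plate 1 was the highest of the 15 plates. Nfib measured 127 CPM at E12, 216 and 723 CPM at E13, 1383 and 385 CPM at E15, 2582 and 2149 CPM at E18, 396 and 478 CPM at P4, 330.0 and 295 CPM at P7, and 299 and 266 CPM in the adult. Both E18 plates were above all others for Nfib, also the one with 5 wells.

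Nfix in Sox2 wells stayed between 23.1 CPM at E12, 34.0 and 128 CPM at E13 and 62.1 and 25.6 CPM at E15, then reached 1071 and 525 CPM at E18. It measured 178 and 159.5 CPM at P4, 135 and 91.6 CPM at P7, and 208 and 162 CPM in the adult. The adult plates reached above both P7 plates and overlapped those of P4. Nfic ranged from 31.5 CPM at E11 to 195 CPM on adult plate 2, with 94.4 CPM on E18 plate 1, 77.8 CPM (52.5 to 111) on adult plate 1, and 0 counts on E18 plate 2, whose Poisson interval reached 50.9 CPM.

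All 4 members changed with stage in Sox2 wells (edgeR adjusted p = 0.00284 for Nfia, 0.0111 for Nfib, 9.37e-05 for Nfix and 0.00258 for Nfic), where 44.9% of 15503 genes did. Only 2 members passed without E18 plate 1, a fit that holds no E18 plate, and the share of all genes called in it is not given here. From E11 to E13 none passed in edgeR, where 0.355% of genes did (0.148% higher, 0.206% lower), with 2 of 4 under 0.05 before adjustment and 1 called by DESeq2. The largest difference there was that of Nfix, 2.51 ± 0.69 on the log2 scale (edgeR adjusted p = 0.163), and 1 member passed without E13 plate 1. None passed from E13 to E15 (edgeR; 0 of 4 before adjustment, 0 by DESeq2), where 1.5% of genes did, 0.761% higher and 0.742% lower.

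From E15 to E18 Nfix rose in Sox2 wells. It changed by 4.43 ± 0.57 on the log2 scale (edgeR adjusted p = 0.00137), the 1 member called where 7.33% of genes changed and 4.02% rose. The call was kept under all 26 alternatives run, none of which could leave out E18 plate 1. With plate 2 and its 5 wells in the fit, the difference was 4.03 (edgeR adjusted p = 0.00802). The make-up of the class moved with this step too: 80% and 88.0% of Sox2 wells also held Pou4f1 on the E15 plates, against 24.5% on E18 plate 1. Summed neuronal markers were 8867 and 7638 CPM at E15 and 2672 CPM on E18 plate 1, and progenitor markers 1138 and 736 against 5086 CPM. With Pou4f1 wells left out, the Nfix difference was 4.44 (edgeR adjusted p = 0.0121). Nfia (2.31 ± 0.67, edgeR adjusted p = 0.0546), Nfib (1.34 ± 0.73, adjusted p = 0.281) and Nfic (0.99 ± 0.39, adjusted p = 0.141) did not pass. More members than Nfix passed without either adult plate, either E11 plate, either E13 plate or E15 plate 1. The share of all genes called in those fits is not given here. The added calls thus cannot be told apart from a fit that called more genes of any kind.

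From E18 to P4, 3 members fell in Sox2 wells where 24.6% of genes changed and 11.8% fell: Nfia by 3.46 ± 0.68 on the log2 scale (edgeR adjusted p = 0.00365), Nfix by 2.35 ± 0.52 (adjusted p = 0.00676) and Nfib by 2.25 ± 0.73 (adjusted p = 0.0390). The E18 value is again 1 plate, and with plate 2 included all 3 passed, at -2.90, -1.99 and -2.11. The make-up of the class moved back at this step. On E18 plate 1, 24.5% of Sox2 wells also held Pou4f1, against 92% and 89.9% on the P4 plates. With Pou4f1 wells left out, E18 was still 1 plate, few genes of any kind passed as lower, and the calls were not kept. The log2 differences were then -0.54 for Nfia, -0.90 for Nfib and -0.08 for Nfix. In those Sox2-only wells Nfia was 1888 CPM on E18 plate 1 and 1445 and 1145 CPM at P4. Nfix was 1064 CPM at E18 and 1388 and 627 CPM at P4, so its P4 plates lay on both sides of the E18 value. The number of Sox2-only wells was 154 at E18 and 10 and 14 at P4. Without P4 plate 2, 1 member passed. The Nfib call was also lost without P4 plate 1, in the unspliced counts and with the replicate block.

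No member passed from P4 to P7 in Sox2 wells (edgeR; 0 of 4 before adjustment, 0 by DESeq2), where 0% of genes did. From P7 to the adult none passed either in edgeR, where 4.08% of genes did (2.54% higher, 1.54% lower), with 1 of 4 under 0.05 before adjustment and 0 by DESeq2. Without adult plate 1, 1 member passed. The adult differences were 1.07 ± 0.59 for Nfia (edgeR adjusted p = 0.356), 0.62 ± 0.47 for Nfix (adjusted p = 0.513), 0.68 ± 0.31 for Nfic (adjusted p = 0.255) and -0.21 ± 0.63 for Nfib (adjusted p = 0.902), on the log2 scale.

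Wells with Sox2 and no Pou4f1 were then set against wells with Pou4f1 and no Sox2 on the same plate. Nfia, Nfix and Nfib were higher in Sox2-only wells over the 10 plates of the tested stages with at least 10 wells of each kind, and Nfic did not pass. The E12 plate, with 12 and 215 wells, was not in the test. Nfia differed by 2.90 ± 0.39 on the log2 scale (edgeR with the plate as a block, adjusted p = 7.69e-05), Nfix by 1.69 ± 0.38 (adjusted p = 0.00368), Nfib by 0.94 ± 0.20 (adjusted p = 0.00257) and Nfic by 0.49 ± 0.22 (adjusted p = 0.121). Among 8927 genes 26% differed and 11.4% were higher in Sox2-only wells, and 3 of 4 members were among the latter. Nfia kept its call under all 22 alternatives, while Nfix and Nfib lost theirs without the plate block.

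The size of the Nfia difference changed with stage. At E13 Nfia was 551 and 1095 CPM in Sox2-only wells and 55.6 and 343 CPM in Pou4f1-only wells of the same plates, ratios of 9.92 and 3.19. At E15 the levels were 559 and 501 CPM against 254 and 109 CPM, ratios of 2.20 and 4.59, and on E18 plate 1 1888 against 1279 CPM, a ratio of 1.48. At E18 both classes were high, and the ratio was the lowest of the series plates tested. Levels were 1445 and 1145 against 91.2 and 85.3 CPM at P4, 745 and 730.3 against 43.8 and 46.2 CPM at P7, and 759 against 32.6 CPM on adult plate 2, ratios of 15.8, 13.4, 17.0, 15.8 and 23.3. Across stages the difference between the classes itself differed for Nfia (edgeR F-test of class by stage, adjusted p = 0.00183) and Nfix (adjusted p = 0.00123), 2 of 4 members where 4.4% of genes did, and did not pass for Nfib (adjusted p = 0.172) or Nfic (adjusted p = 0.777). Both calls were lost in the unspliced counts and without the plate block. E18 and the adult were 1 plate each here. The 5 C57BL/6 plates at E18 gave Nfia ratios of 3.66 to 9.11, and adult plate 1, left out of the test with 9 Sox2-only and 14 Pou4f1-only wells, gave ratios of 3.76 for Nfia and 2.71 for Nfix.

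The ratios of Nfix and Nfib varied between plates and stages. For Nfix the ratios of Sox2-only to Pou4f1-only wells were 7.75 and 8.06 at E13, 0.599 and 1.34 at E15, 0.985 on E18 plate 1, 6.71 and 4.01 on the P4 plates, 3.40 and 2.37 on the P7 plates, and 14.4 on adult plate 2. The E15 ratios of Nfix rest on few counts, with 53.6 and 45.5 CPM over 14 and 11 Sox2-only wells. So does that of E13 plate 1, with 39.9 against 5.14 CPM over 14 and 80 wells. On E15 plate 1 the Nfix value was the higher in Pou4f1-only wells. Its P4 levels were 1388 and 627 CPM against 207 and 156 CPM. For Nfib the ratios were 4.07 and 2.07, 1.46 and 1.74, 0.715, 2.84 and 2.33, 1.61 and 2.12, and 2.95 in the same order. On E18 plate 1 Nfib was higher in Pou4f1-only wells, at 3123 against 2234 CPM. For Nfic the ratios lay between 0.895 on E13 plate 2 and 3.58 on P4 plate 1, with too few counts on E15 plate 1 for a ratio.

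**Figure D2:**
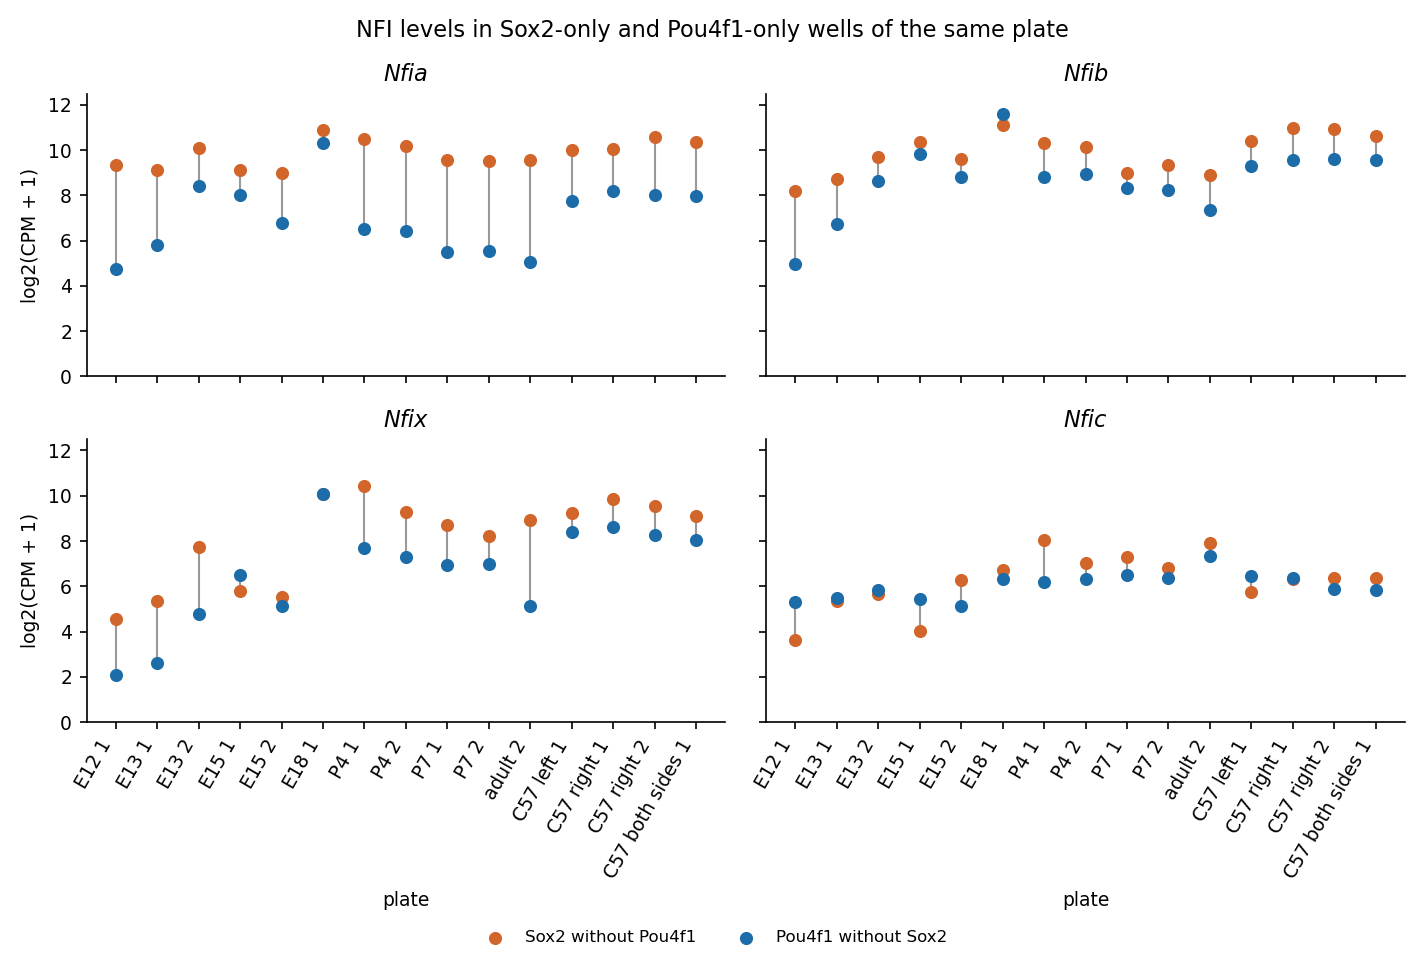
Level of each NFI gene, drawn as log2(CPM + 1), in Sox2-only and Pou4f1-only wells of the same plate, joined by a line, for plates with at least 10 wells of each. For Nfia the Sox2-only point is above the Pou4f1-only point on every plate, from a ratio of 1.48 on E18 plate 1 to 24.4 on the E12 plate.

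Markers of several cell types moved with the class. On the series plates tested, neuronal markers summed to 1115 to 7351 CPM in Sox2-only wells and 5045 to 10838 CPM in Pou4f1-only wells. Sox2-only wells at E15 and on E13 plate 1 still held 5012 to 7351 CPM of neuronal markers, 10 of 10 with counts, so these wells carried neuronal transcripts too. Progenitor markers, a list that holds Sox2 itself and so differs in part by the choice of wells, summed to 1524 to 8397 CPM against 66.5 to 1168 CPM, and astrocyte markers to 487 to 3784 CPM against 18.4 to 641 CPM. Oligodendrocyte markers reached 1597 to 4485 CPM at P4 and P7 and 10957 CPM on adult plate 2 in Sox2-only wells. Single plates stood out in Sox2-only wells. E13 plate 2 held 7186 CPM of ependymal and choroid plexus markers there (519 CPM in Pou4f1-only wells), and E15 plate 2 held 2407 CPM of microglia markers (10.3 CPM). Vascular and fibroblast markers were 1032 CPM on E13 plate 2 and 3069 CPM on P7 plate 1. All Pou4f1 wells of those plates, with or without Sox2, held 941 and 45.1 CPM of them. The part of each cell type in the level of a member was not tested.

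Within Pou4f1 wells, Nfix was lower where medial habenula genes outnumbered lateral ones at P4 and P7. Wells were assigned by whether more of 5 medial genes (Tac1, Tac2, Chat, Slc18a3, Nr4a2) or more of 5 lateral genes (Pcdh10, Htr2c, Chrm3, Gpr151, Cbln1) had a count, a cut on counts and not a cell type. Nfix measured 143 and 132 CPM at P4 and 101 and 108 CPM at P7 in medial-marker wells, and 229, 162, 181 and 121 CPM in lateral-marker wells of the same plates. The medial value was the lower on 4 of 4 plates, by 0.51 ± 0.12 on the log2 scale (edgeR with the plate as a block, -0.51, adjusted p = 0.0152), the 1 member called where 2.67% of 11856 genes differed, 1.81% lower and 0.86% higher. Nfib (-0.16 ± 0.09, edgeR adjusted p = 0.559), Nfia (-0.10 ± 0.16, adjusted p = 0.904) and Nfic (0.28 ± 0.16, adjusted p = 0.591) did not pass. The Nfix call was lost without P4 plate 1, without P7 plate 1, with DESeq2 and without the block, and lateral-marker wells numbered only 22 to 25 on a plate against 182 to 212. The adult plates, which were not in the test, went the other way. There the ratio of lateral-marker to medial-marker wells was 0.499 and 0.401 for Nfix and 0.647 and 0.292 for Nfib, with only 4 and 16 lateral-marker wells.

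At E18 all of Nfia, Nfib and Nfix were higher in lateral-marker wells, on every plate. This was described after the values were seen and has no test. In the C57BL/6 plates (left 1, left 2, right 1, right 2, both sides) Nfia was 321, 307, 440.2, 391 and 407 CPM in lateral-marker wells and 142, 56.9, 159, 123 and 117 CPM in medial-marker wells. The ratios were 2.26, 5.40, 2.77, 3.18 and 3.47. For Nfib they were 1.51, 1.87, 2.00, 2.21 and 2.11, and for Nfix 1.33, 1.98, 2.45, 2.85 and 1.97. Nfic had ratios from 0.841 to 1.25.

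The Brn3a-tauLacZ plates at E18 gave ratios in the same direction, 3.04 and 2.33 for Nfia, 1.43 and 1.55 for Nfib, and 1.24 and 1.72 for Nfix, with only 3 medial-marker wells on plate 1. By P4 and P7 the Nfia ratio lay between 0.858 and 1.21, near 1 on each plate. Nfib was between 0.980 and 1.23 there. Earlier the order was mixed: the Nfia ratio was 0.267 and 0.892 at E11, 0.176 on the E12 plate, 0.204 and 1.97 on the E13 plates, and 2.32 and 2.25 on those of E15. For Nfia, lateral-marker wells were thus the higher on each plate from E15 to E18 but not on each before. Pou4f1 wells of E18 plate 1 held 41.7 CPM of medial markers and 537 CPM of lateral markers, against 247 and 349 CPM on plate 2 and 1360.0 and 381 CPM on P4 plate 1, so the mix of the 2 kinds of wells moved with stage and plate. Its part in the stage differences was not tested.

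**Figure D3:**
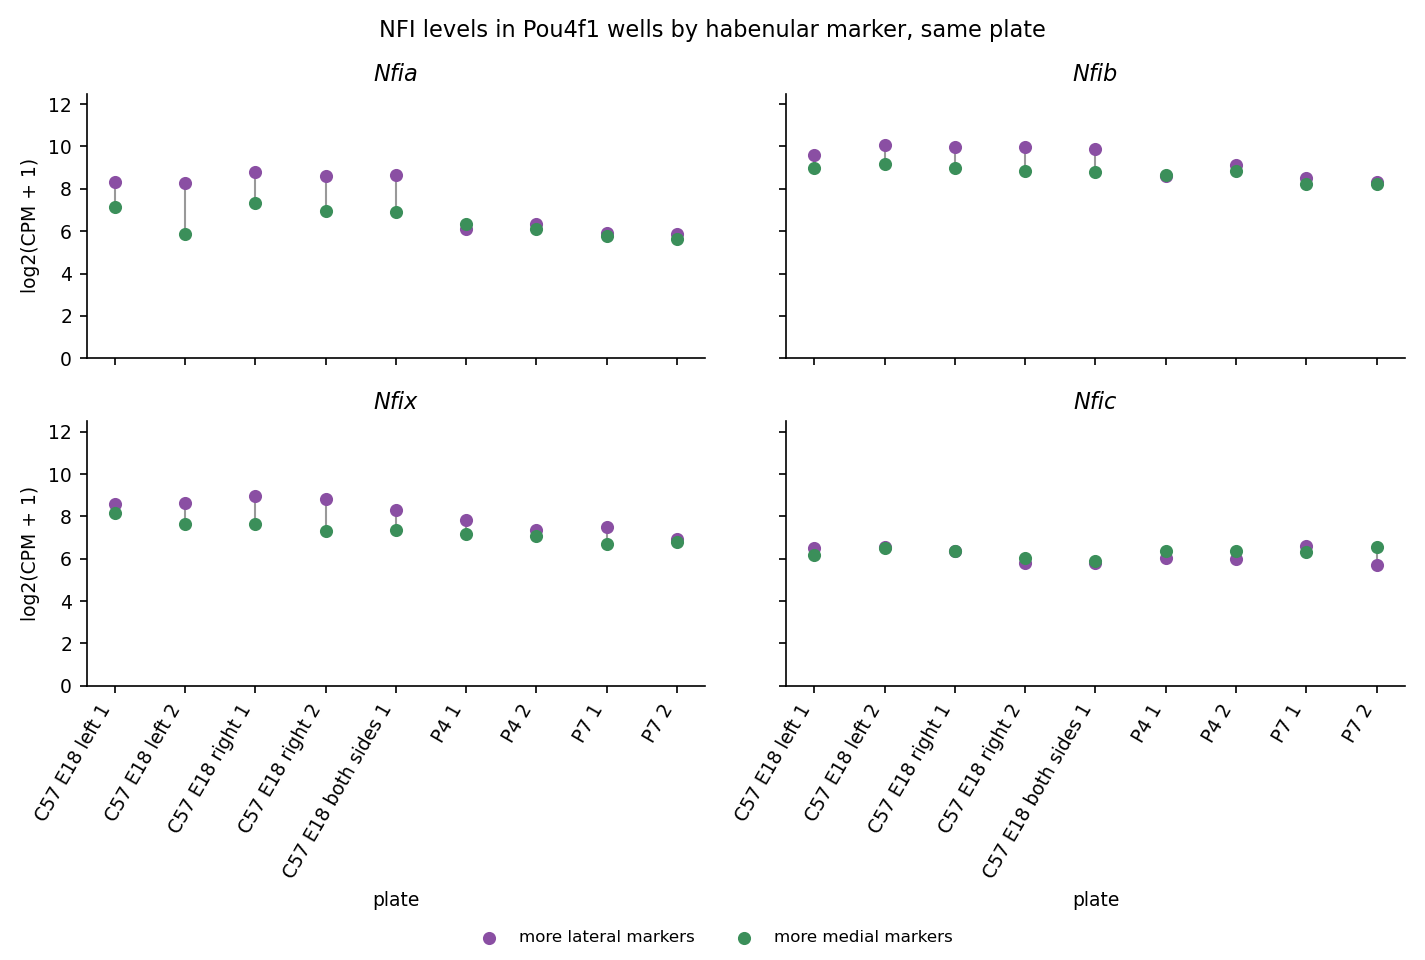
Level of each NFI gene, drawn as log2(CPM + 1), in medial-marker and lateral-marker Pou4f1 wells of the same plate. At E18 in the C57BL/6 plates the lateral-marker value of Nfia is 2.26 to 5.40 times the medial-marker value, while at P4 and P7 the ratio is 0.858 to 1.21.

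Left and right habenula, which are asymmetric in fish and were sampled apart here, showed no member past the threshold. In Pou4f1 wells Nfia measured 306 and 292 CPM on the left plates and 337 and 298 CPM on the right plates, Nfib 757 and 949 against 801 and 812 CPM, Nfix 392 and 361 against 396 and 379 CPM, and Nfic 85.2 and 79.2 against 83.1 and 65.5 CPM. The sides overlapped for all 4 members. The log2 differences, right minus left, were 0.06 (95% interval -0.31 to 0.42) for Nfia, -0.11 (-0.54 to 0.32) for Nfib, 0.01 (-0.34 to 0.37) for Nfix and -0.17 (-0.60 to 0.26) for Nfic. No member passed (edgeR; 0 of 4 before adjustment, 0 by DESeq2), where 0% of 14614 genes did and 155 were under 0.05 before adjustment.

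In Sox2 wells no member passed either, and the sides overlapped for all but Nfic. Nfia measured 586 and 666 CPM on the left and 567 and 697 CPM on the right, Nfib 1087 and 1442 against 1145 and 1189.9 CPM, Nfix 526 and 499 against 512 and 579.9 CPM, and Nfic 77.9 and 78.8 against 84.2 and 79.6 CPM. The differences were 0.00 (-0.45 to 0.45) for Nfia, -0.13 (-0.58 to 0.33) for Nfib, 0.08 (-0.35 to 0.51) for Nfix and 0.06 (-0.44 to 0.55) for Nfic. None passed (edgeR; 0 of 4 before adjustment, 0 by DESeq2), where 0% of 12554 genes did and 167 were under 0.05 before adjustment. Erythroid markers summed to between 273 and 19715 CPM in the Pou4f1 wells of the 4 side plates, the most on left plate 2, and their part was not tested.

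The C57BL/6 and Brn3a-tauLacZ plates at E18 differ in line and are set side by side only. In Pou4f1 wells Nfia was 292 to 344 CPM over the 5 C57BL/6 plates beside 1806 and 377 CPM in the series, Nfib 757 to 949 beside 3319 and 1528, Nfix 295 to 396 beside 1085 and 509.6, and Nfic 59.7 to 85.2 beside 73.5 and 48.6. For Nfia, Nfib and Nfix both series plates were above all 5 C57BL/6 plates, and for Nfic they overlapped. In both lines Sox2-only wells exceeded Pou4f1-only wells for Nfia. On the C57BL/6 plates the Nfia ratios were 4.75, 9.11, 3.66, 5.80 and 5.30, the Nfix ratios 1.79, 2.66, 2.37, 2.41 and 2.06, and the Nfib ratios 2.17, 3.39, 2.70, 2.54 and 2.06, with 5 Sox2-only wells on left plate 2.

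The share of wells with a member was also measured at equal depth. For this, each well was thinned to 2000 UMIs and shallower wells were left out, 35 of the series' Pou4f1 wells. Nfib was found in 2.78% of thinned Pou4f1 wells at E11 (mean of 2 plates), 29.5% at E13, 57.7% at E15, 91.5% at E18, then 52.0%, 35.4% and 26.4% at P4, P7 and adulthood. Nfix was found in 0.177%, 3.42%, 11.6%, 65.7%, 19.4%, 16.1% and 14.7%, and Nfia in 3.31%, 24.4%, 26.7%, 66.0%, 8.89%, 7.05% and 17.4%. Nfic went from 3.76% at E11 to 12.1% at E18 and 26.4% in the adult. Without thinning the E18 shares were 87.6% for Nfia, 96.7% for Nfib, 91.4% for Nfix and 41.4% for Nfic, and the E11 shares 10.0%, 8.03%, 1.04% and 28.3%.

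The shares differed between plates of a stage. At E18 the thinned share of Nfia was 90.5% on plate 1 and 41.5% on plate 2, and at E13 it was 7.69% and 41.2%. No cell type sure to lack NFI genes was at hand as a background. As a low end, Nfix was in 0.353% and 0% of thinned Pou4f1 wells at E11. Between P4 and the adult Nfia was in 7.00% to 26.3% of Pou4f1 wells and in 57.1% to 77.8% of Sox2-only wells at the same depth.

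In the series, the share of Pou4f1 wells with none of the members was lowest on the E18 plates. With 2000 UMIs a well, 88.3% and 93.7% of Pou4f1 wells at E11 held none of the 4 members, against 14.3% and 53.2% at E15, 0% and 11.7% at E18, 35.9% and 34.7% on the P4 plates, 47.3% and 47.5% on the P7 plates, and 31.6% and 50.6% on the adult plates. At E18, 62.2% of wells held 3 members and 12.2% held all 4 on plate 1, and 26.6% and 1.06% on plate 2. On the C57BL/6 plates 18.8% to 35.3% of Pou4f1 wells held none. Of the Sox2-only wells 0% and 14.3% held none at P4 (9 and 14 wells) and 7.14% and 18.2% at P7 (14 and 11 wells), where a further 28.6% and 18.2% held only 1. On the adult plates 0% and 4.49% held none (8 and 89 wells), and 37.5% and 33.7% held 3.

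**Figure D4:**
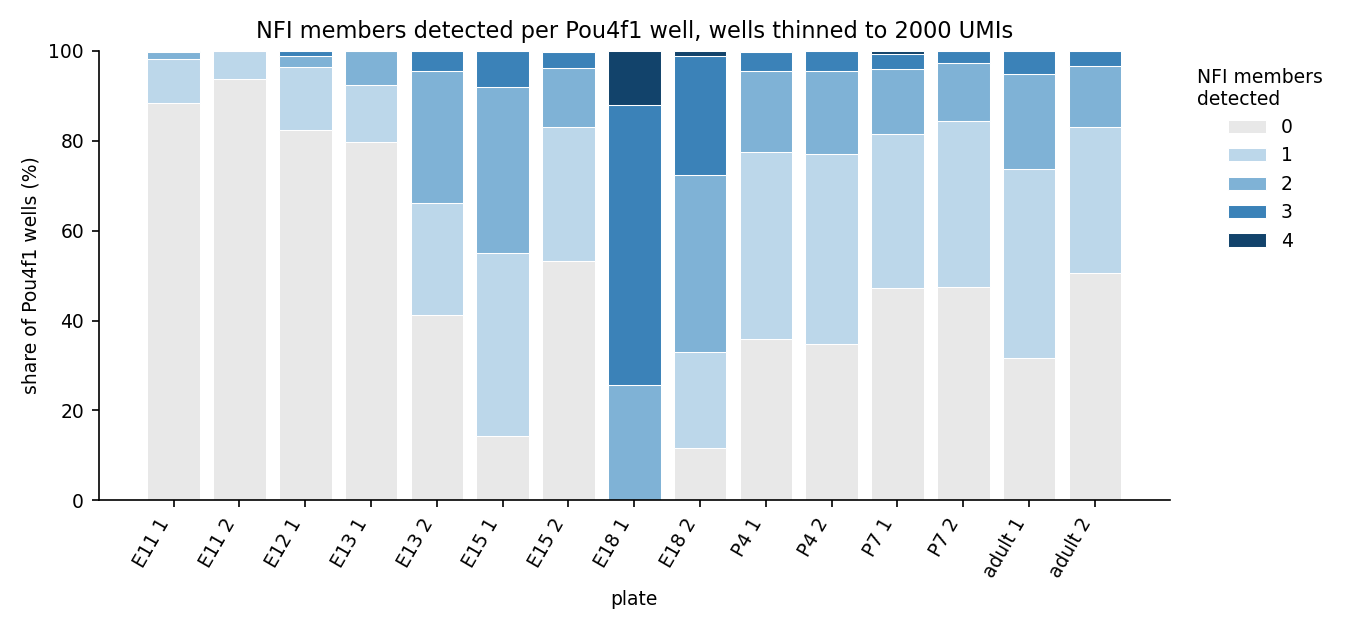
Share of Pou4f1 wells (percent of wells thinned to 2000 UMIs) that held 0, 1, 2, 3 or 4 NFI genes, one bar per plate. Wells with none make up 88.3% and 93.7% at E11, 0% and 11.7% at E18 and 47.3% and 47.5% at P7.

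The members differed in how many of their counts came from unspliced RNA. In Pou4f1 wells of the series 58.5% of Nfia counts were unspliced, with plates from 49.0% to 84.0%. The share was 31.5% for Nfib (22.1% to 53.0%), 9.87% for Nfix (3.25% to 23.7% over 13 plates with enough counts) and 3.32% for Nfic (0.668% to 11.7%), beside 18.6% to 27.0% over all genes on a plate. For Nfix the share moved with stage: 18.6% and 18.8% of its counts were unspliced at E18, and 3.25% and 5.93% at P4. On the 5 C57BL/6 plates at E18 the share for Nfix was at most 7.29%, below both series plates of that stage.

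Genes linked to NFI function were followed in 2 lists. The first held 20 genes of gliogenesis, partners such as Sox9 and Notch1 and targets or glial genes such as Slc1a3, a glutamate transporter, and Aldoc, a glycolytic enzyme of astrocytes. The second held 8 genes of granule neuron maturation, of which 5 were tested in Pou4f1 wells. In Sox2 wells, 11 of 20 gliogenic genes rose from E15 to E18, where 4.02% of all genes did, and none fell. E18 was 1 plate, and with Pou4f1 wells left out 1 of 19 rose, where 0.361% of all genes did. Without E15 plate 2, 7 of 20 rose, where 1.47% did. At the steps before, 1 of 20 fell from E11 to E13 (0.206% of all genes) and 3 of 20 fell from E13 to E15 (0.742%), and none rose. In all Sox2 wells, the median log2 difference of the list from E15 to E18 was 3.56 against 0.00 over all genes. Aldoc, at 0 on both E15 plates and 439 CPM on E18 plate 1 (edgeR adjusted p = 3.26e-05), Slc1a3 (6.18 ± 0.48, adjusted p = 4.14e-05) and Fabp7, a fatty acid binding protein of radial glia (4.91 ± 0.41, adjusted p = 5.14e-05), had the smallest p. From E18 to P4 14 of 20 fell, where 11.8% of all genes did (median -2.14, all genes -0.02). With Pou4f1 wells left out 0 of 19 fell (edgeR; 0 lower and 3 higher at an unadjusted p under 0.05), where 0.294% of all genes did and the list's median was 0.10, and without P4 plate 1 or plate 2 9 of 20 fell, where 4.88% and 4.37% did. Of 7 granule neuron genes tested in Sox2 wells, 3 fell and 1 rose at this step, where 12.8% of all genes rose. From P7 to the adult 8 of 20 rose, where 2.54% did. Summed oligodendrocyte markers in Sox2 wells went from 388 and 330 CPM at P7 to 5618 and 3217 CPM in the adult, and astrocyte markers from 224 and 202 to 2422 and 1262 CPM. The share of Sox2 wells with Pou4f1 went from 87.7% and 85.1% to 43.8% and 45.5%. With those wells left out 0 of 19 rose (edgeR; 4 higher and 3 lower at an unadjusted p under 0.05, median -0.27), where 0.12% of all genes did. In all Sox2 wells 1 of 20 rose without P7 plate 1 or plate 2, where 0.157% and 0.118% of all genes did, and 5 of 20 without P4 plate 1 or plate 2, where 1.55% and 1.51% did.

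In Pou4f1 wells, 6 of 19 gliogenic genes fell and 1 rose from E18 to P4, where 10.4% of all genes fell and 9.97% rose, with a median of -1.65 (all genes 0.01). Without E18 plate 1, which held 2056 CPM of progenitor and 1139 CPM of astrocyte markers against 248 and 189 CPM on plate 2, 3 of 20 fell and 2 rose, where 5.07% and 4.25% of all genes did, and the median turned to 0.69. With Sox2 wells left out 3 of 18 fell (7.99% of all genes). Without P4 plate 1 or plate 2 3 of 20 fell (3.33% and 2.48%), and without E18 plate 2 10 of 20 fell (8.14%). Zbtb20, a zinc finger factor, changed by -2.62 ± 0.33 (edgeR adjusted p = 0.000531) and Apcdd1, a Wnt inhibitor and NFI target in spinal cord, by -3.68 ± 0.60 (adjusted p = 0.0018). Of the 5 granule neuron genes 4 fell and 1 rose at that step. The riser was Etv1, a transcription factor (4.66 ± 0.73, edgeR adjusted p = 0.0015), and Efnb1, an ephrin, changed by -1.84 ± 0.29 (adjusted p = 0.00155). Etv1 had been at 199 and 814 CPM at E15, and was at 41.7 and 74.6 CPM in Pou4f1 wells of E18 plates 1 and 2 and at 1168 and 1506 CPM at P4, while the 5 C57BL/6 plates at E18 held 314 to 641 CPM. At the other steps of the main fit no more than 3 of 19 gliogenic genes and 1 of 5 granule neuron genes passed. Of all genes, 0.00612% to 3.68% did there. How these counts moved under the alternatives is not given here.

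Between the classes, 10 of 12 gliogenic genes tested were higher in Sox2-only wells and none lower, where 11.4% of all genes were higher and 14.6% lower, with a median of 4.21 (all genes -0.05). Slc1a3 (5.96 ± 0.44, edgeR adjusted p = 8.08e-07), Sox9 (3.26 ± 0.33, adjusted p = 1.07e-05) and Hes1, a Notch effector (6.34 ± 0.74, adjusted p = 2.55e-05), led. Of 5 granule neuron genes 3 were lower there, Tubb3, Cntn2 and Etv1, by 2.02 ± 0.39, 1.75 ± 0.39 and 1.47 ± 0.36 on the log2 scale. In the medial against lateral comparison 3 of 9 gliogenic genes were higher and 1 lower, where 0.86% and 1.81% of all genes were, and of 5 granule neuron genes 1 was higher, Etv1 by 0.83 ± 0.09 (edgeR adjusted p = 8.14e-07), and 1 lower. Neither list had a call between left and right.

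The genes whose plate profile was most like each member's are given as a description, by Pearson correlation of log2(CPM + 1) among genes of at least 20 CPM. The plates share depth and stage, so high values are common. Over 14 plates of Pou4f1 wells Nfia was closest to Rspo3, a Wnt potentiator (r = 0.93), Ldlrad4 (0.92) and Plpp3 (0.90). Nfib was closest to the unnamed locus AC154683.1 (0.97), Nfix (0.93) and Gm37812 (0.93), and Nfix to Wls, which carries Wnt proteins to the cell surface (0.96), Ndufc2 (0.94) and Nfib (0.93). Nfib and Nfix thus named each other. Nfic was closest to Ttc8, Slc44a1 and Ift80 (all 0.97), of which Ttc8 and Ift80 serve primary cilia.

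Among the members themselves in Pou4f1 wells, r was 0.90 for Nfia and Nfib and 0.75 for Nfia and Nfix, against 0.26, 0.46 and 0.63 for Nfic with Nfia, Nfib and Nfix. In Sox2 wells Nfix was closest among the members to Nfic (0.74), then Nfib (0.69) and Nfia (0.51). Over 13 plates of Sox2 wells Nfia was closest to Gpbp1l1 (0.93), Ptcd2 (0.92) and Il17rd (0.91), Nfib to Kansl1l (0.94), Ints4 (0.94) and Ldb2 (0.91), Nfix to Ltbp3 (0.95), Ptprt (0.92) and Pdgfa (0.92), and Nfic to Mrpl4 (0.95), Psap (0.94) and Rasa3 (0.93). In Pou4f1 wells Wls measured 517 and 429 CPM at E18, 22.2 to 32.3 CPM at E11 and 195 to 207 CPM at P4, and Rspo3 measured 1392 and 542 CPM at E18, 8.91 to 35.2 CPM at E11 and 98.7 to 113 CPM at P4.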

How the data were processed

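Per the labels' protocols, cells were processed on plates with Cel-seq2 and 6-base UMIs. Per the submitters' processing notes, reads were aligned with STAR 2.5.3a to mm10. The counting program, annotation and use of strand were not given in the sources used here. Expected counts were deposited by the authors per gene and well, UMI numbers corrected for collisions among 4096 possible UMIs, and all of them inverted to whole UMIs within 1e-06. The total table, spliced plus unspliced, was used.

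Wells were kept with at least 1000 non-mitochondrial counts, at least 500 genes and at most 20% mitochondrial counts, and no 2 kept wells were identical. No doublet caller was run. CPM left out 92 spike-ins. Sums per plate and class were rounded and tested in edgeR 4.0.16 under R 4.3.3 (quasi-likelihood, filterByExpr, TMM), with Benjamini-Hochberg adjustment over all genes and a threshold of 0.05, leaving out plates with fewer than 10 wells of a class. The E12 plate and the plate of both sides are given as values only. On simulated data, 83% to 94.5% of 200 genes changed 4-fold were recovered. Their spread was set to that typical of genes at the same level, and of the stage steps only E18 to P4 was simulated. The share does not hold for a member whose plates differed more. DESeq2 1.42.0 was an alternative. Intervals are exact Poisson 95% intervals and cover counting error only.

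The members and lists were chosen with earlier results of these data known. Named genes are the 4 members, the 3 most alike genes per member and class, and at most 3 genes of a list with the smallest p in a contrast.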

Additional observations from a re-analysis of the deposited data

Results flagged for a closer look

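The difference between Sox2-only and Pou4f1-only wells differed between stages for Nfia (edgeR F-test of class by stage, adjusted p = 0.00183) and for Nfix (adjusted p = 0.00123). For Nfia the plate ratios of Sox2-only to Pou4f1-only wells went from 1.48 on E18 plate 1 to 13.4 and 15.8 at P4 and 23.3 on adult plate 2, and Sox2-only wells were the higher on 10 of 10 plates. For Nfix the ratios went from 0.599 on E15 plate 1 to 14.4 on adult plate 2, and Sox2-only wells were the higher on 8 of 10 plates. The low end rests on few counts, 53.6 CPM over 14 Sox2-only wells. E18 and the adult were 1 plate each in this test. Adult plate 1, not in the test with 9 Sox2-only and 14 Pou4f1-only wells, gave ratios of 3.76 for Nfia and 2.71 for Nfix. The 5 C57BL/6 plates at E18, not in the test either, gave ratios of 3.66 to 9.11 for Nfia and 1.79 to 2.66 for Nfix. Both calls were lost in the unspliced counts and without the plate block.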

How the results depend on the processing

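Counts of members called are given, without the share of all genes called under each alternative. A count that moved thus cannot be told apart from a fit that called more or fewer genes of any kind. No called difference of a member changed direction in any alternative run. From E11 to E13 in Pou4f1 wells 1 passed at a class threshold of 2 counts and 0 with only the plates of the 2 stages. From E13 to E15 1 passed with no filter on low counts. From E15 to E18 1 passed (Nfix) under DESeq2, recovered whole UMIs, the unspliced counts, no well filter, a class threshold of 2, without Sox2 wells, without wells above 3 times the median UMIs, without wells with myelin transcripts and with the replicate block, and 3 with no filter. From P4 to P7 2 passed with only the plates of the 2 stages, and from P7 to the adult 1 under RLE size factors, DESeq2, the spliced counts, a class threshold of 2 and without Sox2 wells.

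In Sox2 wells 2 members changed with stage in the unspliced counts. From E11 to E13 1 passed under DESeq2, 1 in the unspliced counts and 3 with no filter, and from E13 to E15 1 with no filter. From E15 to E18 2 passed under DESeq2, 2 in the spliced counts, 3 at a class threshold of 2, 3 without wells with myelin transcripts and 4 with no filter. From E18 to P4 0 passed without Pou4f1 wells, from P4 to P7 1 with only those plates, and from P7 to the adult 1 with no filter and 1 with only those plates. Between classes 1 passed without the plate block, the change with stage had 0 in the unspliced counts and 0 without the block, and the medial against lateral contrast had 0 under DESeq2, 0 in the unspliced counts and 0 without the block. The cause was not tested.

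Leaving out each plate in turn gave, in Pou4f1 wells, 4 to 4 over all stages, 0 to 4 from E11 to E13, 0 to 0 from E13 to E15, 0 to 1 from E15 to E18, 0 to 4 from E18 to P4, 0 to 0 from P4 to P7 and 0 to 1 from P7 to the adult. In Sox2 wells it gave 2 to 4, 0 to 1, 0 to 0, 1 to 3, 1 to 3, 0 to 0 and 0 to 1 in the same order. Between classes it gave 3 to 4, for their change with stage 2 to 2, for the sides 0 to 0 in both classes, and for medial against lateral 0 to 1.

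Few same-numbered plates of the series deviated together: of 21 pairs in Pou4f1 wells 5 had a correlation over 0.1 (-0.33 to 0.53), and of 15 in Sox2 wells 1. The 1 pair of the left and right set had 0.17 in Pou4f1 and 0.16 in Sox2 wells, too few pairs to show a pairing. The counts of gliogenic genes without a plate or without wells of the other class were chosen after seeing the data, and some of their medians changed sign, as given beside them. The replicate block added the Nfix call above and ended that of Nfib from E18 to P4 in Sox2 wells. The 2 plates a stage, the few Sox2-only wells and the few Nfix counts at E11 limit the precision.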
